A study of Homo sapiens with 2 samples.

Results

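The 10 genes described here encode the receptors of leukemia inhibitory factor (LIF) and related cytokines (LIFR, IL6ST and OSMR), a kinase and a transcription factor that carry their signal (JAK1 and STAT3), feedback inhibitors (SOCS2, SOCS3 and CISH) and target genes (PIM1 and CEBPD). They were chosen by name from the 36601 genes of the files, and all 10 were present. The cells were astrocyte progenitors of the human embryonic stem cell line H7, profiled as 1 single-cell RNA library at day 220 and 1 at day 160 of differentiation. Both cultures had received LIF, BMP4 and FGF1 in sequence, so there was no library without LIF treatment. Each library combined 3 differentiations that no label separates. The protocol text filed with the day 220 library speaks of 160 days, although its title and time label give day 220, and the names of the libraries carry different prefixes of unstated meaning.

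LIF binds LIFR, which pairs with the shared chain gp130, the product of IL6ST, while oncostatin M acts through OSMR and the same chain. Receptor-bound JAK kinases then phosphorylate STAT3, which enters the nucleus and switches on genes that include SOCS3, a protein that binds gp130 and shuts the signal off. In neural progenitors this pathway is known for driving astrocyte differentiation, in which STAT3 activates the astrocyte filament gene GFAP.

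A barcode was read as a cell if it had 1000 genes or more and no more than 15% mitochondrial UMIs, where a UMI stands for 1 captured RNA molecule. These were 524 cells with 25981066 UMIs at day 220 and 9972 cells with 128847264 UMIs at day 160. A typical cell was deeper at day 220, with a median of 46438 UMIs against 10457.5 UMIs at day 160. Mitochondrial genes took 8.79% of UMIs at day 220 and 11.7% at day 160. The libraries shared 3 barcodes. With 1 library per day no test across samples was possible, and the 95% intervals given in parentheses cover counting error only. A difference between the days cannot be told apart from any other difference between these libraries. Levels are UMIs summed over cells and scaled to CPM, the usual counts-per-10⁶ scale, and log2 ratios compare CPM + 1 at day 220 with CPM + 1 at day 160.

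Receptor and signalling genes were similar or somewhat higher at day 220, whereas SOCS2, SOCS3 and PIM1 were at least 2-fold lower. Of the 9 members that reached 10 CPM in either library, 3 were at least 2-fold lower and 0 at least 2-fold higher. Over all 10167 genes at that level, 5.15% were at least 2-fold lower and 22.8% at least 2-fold higher. The median log2 ratio was 0.03 over the 9 members and 0.14 over all genes. CISH was below the level in both libraries.

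**Figure D1:**
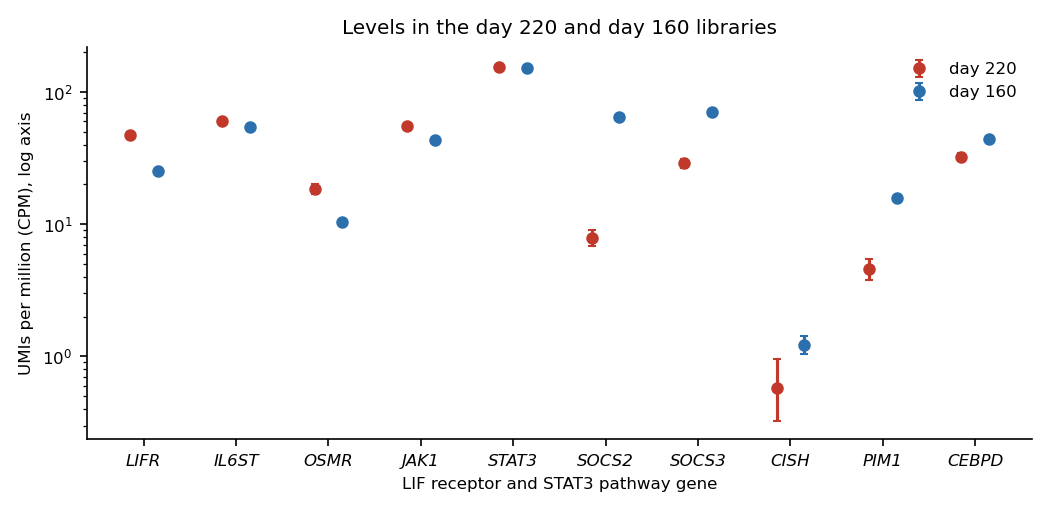
Level of each gene in CPM (log axis) in the day 220 library (red) and the day 160 library (blue), with exact Poisson 95% intervals, many of them smaller than the points. SOCS2, SOCS3 and PIM1 lie lower at day 220, while STAT3 lies at 156 and 153 CPM.

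Among the receptors, LIFR (ENSG00000113594, chromosome 5, 38474963 to 38608354 on GRCh38, minus strand) had 47.0 CPM at day 220 (44.4 to 49.7), against 25.1 CPM at day 160 (24.3 to 26.0), a level 1.87-fold higher (1.75 to 1.997). OSMR (ENSG00000145623, chromosome 5, 38845858 to 38945596, plus strand) had 18.5 CPM at day 220 (16.9 to 20.2), against 10.4 CPM at day 160 (9.82 to 10.9), a level 1.79-fold higher (1.61 to 1.98). IL6ST (ENSG00000134352, chromosome 5, 55935095 to 55994993, minus strand) had 60.3 CPM at day 220 (57.3 to 63.3), against 54.2 CPM at day 160 (53.0 to 55.5), a level 1.11-fold higher (1.05 to 1.17). None of the 3 receptor chains was 2-fold apart, and their intervals cover counting error only.

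The ratio of the libraries varied with intron length, and LIFR has 121528 annotated intron bases and OSMR 92565. Measured against genes of similar intron length, the log2 ratio of LIFR was -0.13 in place of 0.88, that of OSMR 0.16 in place of 0.78 and that of IL6ST -0.13 in place of 0.15. On that scale 2 of the 9 members, SOCS2 and PIM1, lay at least 2-fold below and 0 above, beside 10.1% of all genes higher (1025) and 7.41% lower (751), where the uncentred scale had 2318 higher and 524 lower. OSMR overlaps the oppositely oriented gene RICTOR, which at 46.5 CPM at day 220 and 22.0 CPM at day 160 was above OSMR itself and also higher at day 220. OSMR-AS1 had 9.24 and 2.06 CPM. LIFR overlaps LIFR-AS1, at 3.89 CPM at day 220 and 2.50 CPM at day 160. The strand setting of the counting is not stated, so reads of these partners may be mixed, and the part of RICTOR and OSMR-AS1 in the OSMR difference was not tested. IL6ST has a pseudogene, IL6STP1, and SOCS2 has SOCS2P1 and SOCS2P2, so reads shared with these copies are uncertain.

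The signalling genes differed by less. STAT3 (ENSG00000168610, chromosome 17, 42313324 to 42388568, minus strand), the transcription factor of the pathway, had 156 CPM at day 220 (151 to 161), against 153 CPM at day 160 (151 to 155), a ratio of 1.02 (0.986 to 1.06). JAK1 (ENSG00000162434, chromosome 1, 64833229 to 64966504, minus strand), a kinase bound to gp130, had 55.6 CPM at day 220 (52.7 to 58.5), against 43.6 CPM at day 160 (42.5 to 44.8), a level 1.27-fold higher (1.20 to 1.35). The sign of both depended on the scaling. STAT3 was at a log2 ratio of -0.11 once the libraries were centred on their median gene, and after centring on intron length STAT3 was at -0.51 and JAK1 at -0.72.

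The feedback inhibitors were lower at day 220. SOCS2 (ENSG00000120833, chromosome 12, 93569814 to 93583487, plus strand), best known as a brake on growth hormone signalling, had 7.85 CPM at day 220 (6.81 to 9.01), against 64.7 CPM at day 160 (63.3 to 66.1), a level 8.24-fold lower (7.17 to 9.52). SOCS3 (ENSG00000184557, chromosome 17, 78356778 to 78360077, minus strand) had 28.8 CPM at day 220 (26.8 to 31.0), against 70.2 CPM at day 160 (68.8 to 71.7), a level 2.44-fold lower (2.26 to 2.63). After centring on intron length SOCS2 was at a log2 ratio of -2.56 and SOCS3 at -0.81, so that SOCS3 was no longer 2-fold apart. The antisense partner SOCS2-AS1 had 2.23 CPM at day 220 and 8.70 CPM at day 160.

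CISH (ENSG00000114737, chromosome 3, 50606490 to 50611831, minus strand), a feedback inhibitor induced mainly through STAT5, was close to absent. It had 15 UMIs at day 220 and 157 UMIs at day 160, or 0.58 CPM at day 220 (0.32 to 0.95), against 1.22 CPM at day 160 (1.04 to 1.42). It overlaps MAPKAPK3 on the opposite strand.

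The STAT motif TTCNNNGAA, which reads the same on both strands, was searched in RefSeq promoter windows (250 bases before to 50 after a start site, GRCh38.p14). Windows were matched by symbol, and those of 8 of the 10 genes were searched. SOCS2 had no entry and CEBPD was left out of the search, so the counts for members do not cover these 2 genes. The motif was found in 3 of the 13 windows searched and in 7.66% of all 35116 windows. CISH, the member with the lowest level, had 4 matches, which start 241, 230, 129 and 112 bases before the start site and do not overlap. The CISH window and the LIFR window with a match 165 bases before the start are shown, with matches in capitals. Among the windows searched, these genes were the feedback gene and the receptor gene with matches.
CISH, chr3:50611725-50612024, minus strand: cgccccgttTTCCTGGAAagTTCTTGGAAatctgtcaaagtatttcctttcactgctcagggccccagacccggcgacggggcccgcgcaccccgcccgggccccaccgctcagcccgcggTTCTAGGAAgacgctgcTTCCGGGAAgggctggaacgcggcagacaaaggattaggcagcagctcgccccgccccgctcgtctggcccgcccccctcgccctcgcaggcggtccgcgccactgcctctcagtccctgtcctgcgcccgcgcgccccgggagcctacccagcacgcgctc
LIFR, chr5:38595356-38595655, minus strand: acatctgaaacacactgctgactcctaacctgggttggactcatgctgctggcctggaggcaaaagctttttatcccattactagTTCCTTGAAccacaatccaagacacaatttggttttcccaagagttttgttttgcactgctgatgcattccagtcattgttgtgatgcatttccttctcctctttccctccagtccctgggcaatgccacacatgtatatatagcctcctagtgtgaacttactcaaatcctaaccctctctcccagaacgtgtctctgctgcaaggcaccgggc
A second LIFR window (chr5:38557418-38557717) had 1 match, TTCATCGAA. The stricter form TTCCNGGAA, which is part of the first motif, was found in the CISH window alone among the 13 and in 1.15% of all windows. A match is a run of letters and does not show binding, and these windows do not cover every start site of a gene. The SOCS3 windows (chr17:78359618-78359917 and chr17:78360876-78361175) had no match. Neither of them holds the bases just before the annotated SOCS3 start at 78360077.

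Both target genes were lower at day 220, and PIM1 by more than 2-fold. PIM1 (ENSG00000137193, chromosome 6, 37170203 to 37175426, plus strand), a serine/threonine kinase that promotes survival, had 4.58 CPM at day 220 (3.79 to 5.48), against 15.7 CPM at day 160 (15.001 to 16.4), a level 3.42-fold lower (2.84 to 4.15). CEBPD (ENSG00000221869, chromosome 8, 47736909 to 47739086, minus strand), a transcription factor of acute-phase and glial responses, had 32.2 CPM at day 220 (30.03 to 34.4), against 44.0 CPM at day 160 (42.8 to 45.1), a level 1.37-fold lower (1.27 to 1.47). Centred on intron length, PIM1 was at -1.17 and CEBPD at -0.09. With the mitochondrial limit set at 10% in place of 15%, and without centring, CEBPD was at -0.03.

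Other genes of the pathway, taken from a list of 48, differed in both directions. Among 27 that reached the level, 3 lay at least 2-fold above and 4 at least 2-fold below, beside 22.8% of all genes higher and 5.15% lower. The median log2 ratio was 0.38, or 0.24 after centring on intron length. All 3 higher genes were kinases or STATs, of which 5 were at the level. JAK2, a kinase partner of JAK1, was 5.10-fold higher (4.60 to 5.65), at 29.3 and 5.74 CPM. STAT2, which acts in interferon signalling, had 60.01 and 23.5 CPM, and STAT5B, a STAT of growth hormone signalling, had 40.3 and 12.5 CPM. After centring these 3 remained above 2-fold, with log2 ratios of 1.05 for JAK2, 1.55 for STAT2 and 1.03 for STAT5B.

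All 4 lower genes were among the 14 listed targets at the level. GFAP was 4.05-fold lower (3.92 to 4.19), at 135 CPM at day 220 and 547 CPM at day 160. SERPINA3, an acute-phase protease inhibitor, was 7.75-fold lower (6.72 to 8.99), IFITM3, an interferon-induced membrane protein, 9.51-fold lower (6.88 to 13.6) and the immediate early gene FOS 2.20-fold lower (2.13 to 2.27). After centring FOS was at a log2 ratio of -0.74 and no longer 2-fold apart, which left 3 lower targets. The targets had a median of -0.47, or -0.11 after centring. The other 10 targets at the level were within 2-fold, as were all 7 feedback regulators and phosphatases at the level, whose median was 0.58, or 0.25 after centring.

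Immediate early genes, which cell handling can induce, also differed between the libraries. Of 9 immediate early genes at the level, 3 were at least 2-fold lower at day 220 and 0 higher, beside 5.15% of all genes lower and 22.8% higher, with a median of -0.79. After centring on intron length 1 of the 9 was lower and the median was -0.55. The 13 listed genes summed to 823 CPM at day 220 and 1646 CPM at day 160. Their part in the levels of SOCS3, PIM1 and CEBPD was not tested. Levels of cell type markers differed as well. Of 13 cycling markers 12 were at least 2-fold lower at day 220, and of 12 neuronal precursor markers 10. After centring these were 12 and 7. Of 10 radial glia markers 2 were higher and 3 lower, and of 8 astrocyte markers at the level 2 and 2. Microglial markers summed to 0.423 CPM at day 220 and 0.0388 CPM at day 160.

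Among the ligands, none of 8 reached 10 CPM in either library. LIF had 6.58 CPM at day 220 (5.63 to 7.65), against 3.53 CPM at day 160 (3.21 to 3.87). CTF1 (cardiotrophin) had 8.93 and 8.81 CPM, IL11 4.73 and 3.75 CPM, CLCF1 3.00 and 2.37 CPM, and CNTF 0.19 and 0.26 CPM. IL6 was found as 1 UMI and 46 UMIs, and OSM, the ligand of OSMR, as 2 UMIs and 0 UMIs. Of the ligand-binding chains that pair with gp130, CNTFR had 35.5 CPM at day 220 (33.2 to 37.9), against 48.2 CPM at day 160 (47.1 to 49.5), whereas IL6R had 0.62 and 1.10 CPM and IL11RA 0.96 and 2.12 CPM.

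LIF transcripts came mostly from 1 small cluster in each library. Each library was clustered alone, and the 10 members and the 48 pathway genes were left out of the genes that shaped the clusters. The cluster led by COL1A1 and the contractile genes TAGLN and ACTA2 held 52 cells at day 220 and 271 at day 160, or 9.92% and 2.72% of cells. It gave 135 of 171 LIF UMIs (78.9%, 72.1 to 84.8) at day 220 and 370 of 455 (81.3%, 77.4 to 84.8) at day 160. Few cells carried most of them at day 220, where 1 cell of this cluster held 24 of the 171 UMIs and the top 5 cells of the library held 49.7%, so the intervals, which treat UMIs as independent, are too narrow. At day 160 the top cell held 27 of the 455. Its LIF level was 28.95 CPM at day 220 (24.3 to 34.3), against 32.9 CPM at day 160 (29.7 to 36.5). In the other clusters of 30 or more cells LIF ranged up to 3.56 CPM at day 220 and up to 2.21 CPM at day 160. Cells thinned to 5000 UMIs carried a LIF UMI in 9.80% and 8.75% of these contractile cells, against 0.83% and 0.19% of astrocyte-like cells. Before thinning a LIF UMI was found in 42.3% (28.7 to 56.8) and 30.3% (24.8 to 36.1) of the contractile cells, at median depths of 84487 and 31457 UMIs, against 6.57% and 0.81% of all other cells, at 44232.5 and 10318 UMIs. LIFR was low in the same cells, at 13.7 CPM (10.6 to 17.5) at day 220, its lowest cluster there, and at 17.9 CPM (15.5 to 20.5) at day 160. The day 220 interval overlapped that of the cluster led by BRINP1 and SCGN, at 17.0 CPM (9.51 to 28.0).

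**Figure D2:**
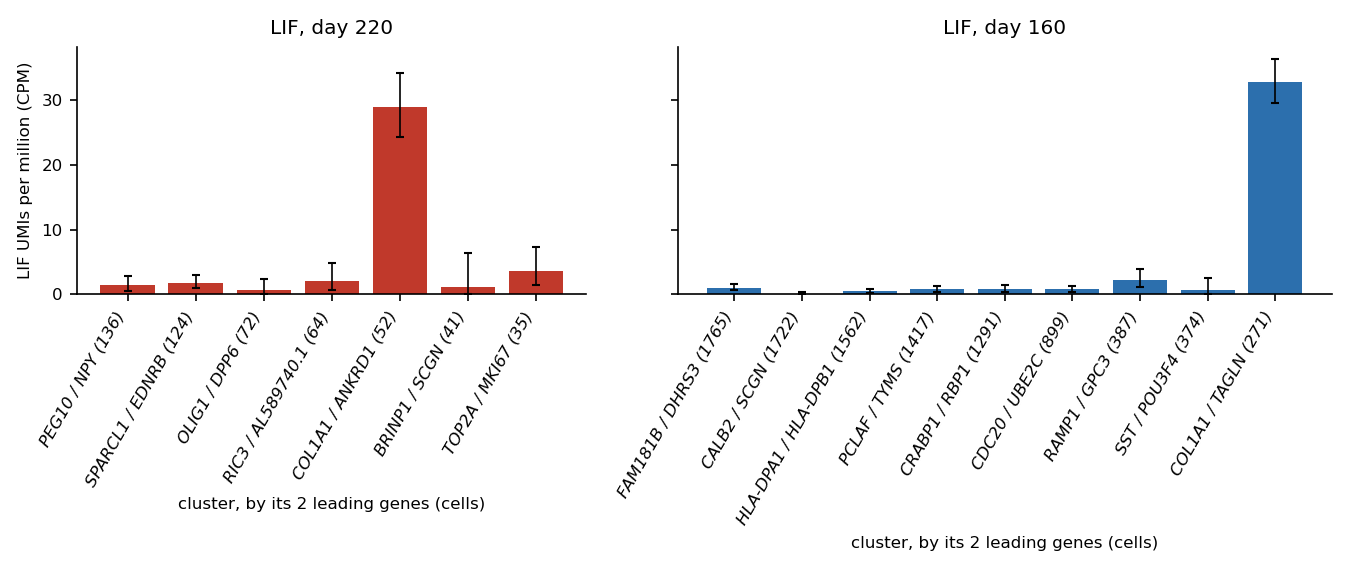
LIF level (CPM) in each cluster of 30 or more cells at day 220 (left) and day 160 (right) other than the mostly doublet day 160 cluster, with exact Poisson 95% intervals; clusters are named by their 2 leading genes, with cell numbers. The COL1A1 clusters stand at 28.95 and 32.9 CPM, and every other cluster shown is at 3.56 CPM or below.

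Receptor genes differed between cell clusters, and LIFR peaked in different cells in the libraries. At day 220 LIFR was highest at 83.2 CPM (75.5 to 91.5) in the cluster led by PEG10, NPY and DLX6-AS1. Of its 425 LIFR UMIs there, 53 came from 1 cell. The astrocyte-like cluster, led by SPARCL1 and EDNRB, followed at 60.8 CPM (55.4 to 66.6). At day 160 LIFR was highest at 39.1 CPM (36.7 to 41.5) in the astrocyte-like cluster led by HLA class II genes, and lowest at 8.56 CPM (5.54 to 12.6) in the SST cluster and 11.3 CPM (9.43 to 13.5) in the CALB2 precursor-like cluster. The intervals of these last 2 clusters overlapped.

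OSMR was highest in the astrocyte-like cluster at both days, at 22.5 CPM at day 220 (19.2 to 26.1), against 18.7 CPM at day 160 (17.1 to 20.4). At day 220 its interval overlapped those of the PEG10 (20.8 CPM), OLIG1 (18.9 CPM), contractile (16.1 CPM) and cycling (15.8 CPM) clusters. At day 160 it was at 3.50 CPM (2.49 to 4.79) in CALB2 cells, 3.14 CPM (2.18 to 4.39) in CRABP1 cells and 2.74 CPM (1.18 to 5.40) in SST cells. LIFR UMIs per OSMR UMI therefore ranged from 0.85 in contractile cells to 4.01 in PEG10 cells at day 220, and from 1.36 in contractile cells to 7.68 in CRABP1 cells at day 160.

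IL6ST varied less than LIFR and OSMR over the day 160 clusters, 2.22-fold against 4.56-fold and 6.83-fold. At day 220 IL6ST ranged 5.34-fold, between OSMR at 3.97-fold and LIFR at 6.06-fold. IL6ST lay at 12.5 CPM in the BRINP1 and SCGN precursor cluster of day 220, on 11 UMIs in 41 cells. In the other day 220 clusters it lay at 56.4 to 66.5 CPM. At day 160 it ranged from 33.0 CPM in CALB2 cells to 73.1 CPM in astrocyte-like cells. JAK1 ranged 1.82-fold and 1.90-fold over the clusters of the libraries, from 33.5 to 61.1 CPM at day 220 and from 31.9 to 60.7 CPM at day 160. STAT3 ranged from 95.9 to 213 CPM at day 220 and from 115 to 181 CPM at day 160, with the contractile cluster lowest in both. At day 160 the interval of the contractile cluster (109 to 122) overlapped that of the cluster led by PCLAF and TYMS, at 117 CPM (112 to 122).

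**Figure D3:**
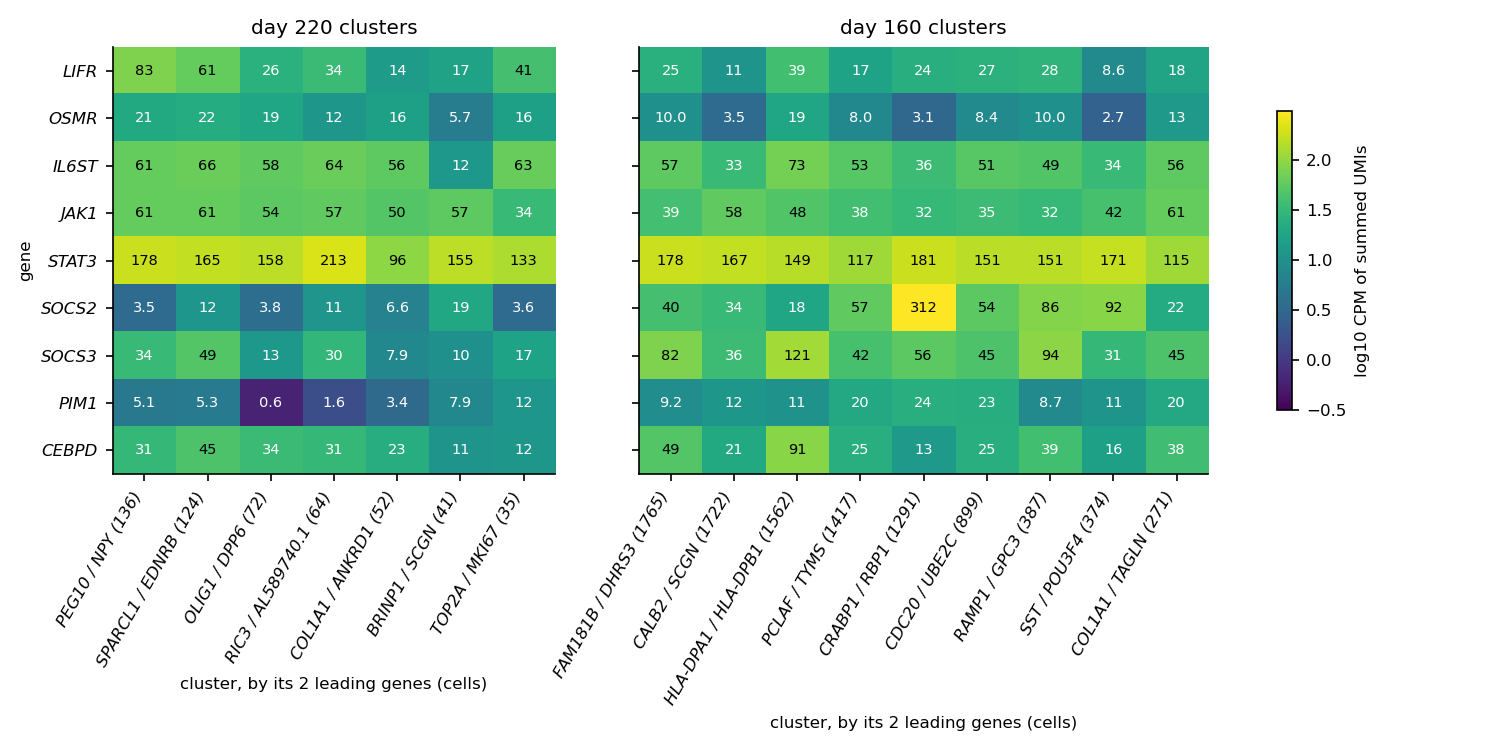
CPM of summed UMIs for 9 members (CISH, at 1.71 CPM or below in every cluster shown, is left out) in each cluster of 30 or more cells at day 220 (left) and day 160 (right), without the day 160 cluster made mostly of marked doublets; colour is log10 CPM and the printed numbers are CPM. SOCS2 stands out at 312 CPM in the CRABP1 cluster of day 160, and SOCS3 and CEBPD are highest in the astrocyte-like clusters (SPARCL1 and HLA-DPA1).

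SOCS2 was concentrated in 1 cell cluster at day 160. The cluster led by CRABP1, a retinoic acid-binding protein gene, and HOXB genes had 312 CPM of SOCS2 (301 to 322), against 92.5 CPM (81.8 to 104) in the SST cluster, the next highest, and 18.0 CPM (16.4 to 19.7) in astrocyte-like cells, the lowest. It held 12.9% of day 160 cells and 3370 of 8338 SOCS2 UMIs. At 5000 UMIs per cell, 66.9% of CRABP1 cells and 7.40% of astrocyte-like cells had a SOCS2 UMI. At day 220 SOCS2 ranged from 3.52 CPM in PEG10 cells to 19.3 CPM (11.2 to 30.8) in the BRINP1 and SCGN cluster. Without the CRABP1 cluster the log2 ratio of SOCS2 was -2.28 in place of -2.89.

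SOCS3 and CEBPD were both highest in astrocyte-like cells. SOCS3 had 49.5 CPM (44.6 to 54.7) in these cells at day 220 and 121 CPM (117 to 125) at day 160. At day 220, 64 of its 383 UMIs in these cells came from 1 cell. CEBPD had 44.9 CPM at day 220 and 91.2 CPM at day 160 in the same cells. The RAMP1 cluster of day 160 was next for SOCS3 with 93.7 CPM (85.8 to 102), and it had the highest FOS level, 613 CPM, against 332 CPM in astrocyte-like cells. PIM1 followed another order, with 11.7 CPM in cycling cells at day 220, and 24.1 CPM in CRABP1 cells and 23.3 CPM in CDC20 cycling cells at day 160. It was at 0.63 CPM, or 2 UMIs, in the OLIG1 cluster of day 220.

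Within cell classes found in both libraries, SOCS3 was at least 2-fold lower at day 220 in each of the 4 classes compared, although the counting interval reached below 2-fold in cycling-like cells (1.79 to 3.63) and CALB2 precursor-like cells (1.82 to 7.69). The ratios within classes were not centred on intron length. Over all cells that centring moved the log2 ratio of SOCS3 from -1.26 to -0.81, which is within 2-fold. In astrocyte-like cells, 124 at day 220 and 1562 at day 160, SOCS3 was 2.44-fold lower (2.20 to 2.72). CEBPD was 2.03-fold lower (1.81 to 2.28) and PIM1 2.06-fold lower (1.49 to 2.94) by plain CPM, both with intervals that reach below 2-fold. On the log2 scale of CPM + 1 used for the counts, CEBPD was at -1.01 and PIM1 at -0.92, so that CEBPD was counted and PIM1 was not. Of all genes in these cells 5.11% were at least 2-fold lower and 23.2% higher. SOCS2 had 11.8 and 18.0 CPM there, 1.53-fold lower (1.22 to 1.94), and PIM1 5.29 and 10.9 CPM. LIFR had 60.8 and 39.1 CPM, 1.56-fold higher (1.39 to 1.74), and STAT3 165 and 149 CPM. The astrocyte filament gene GFAP had 236 and 1252 CPM, 5.30-fold lower (5.05 to 5.55). The astrocyte-like cells of the libraries were therefore not alike in this marker.

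In contractile-like cells SOCS2, SOCS3 and PIM1 were all past 2-fold, beside 5.19% of all genes lower and 19.5% higher. SOCS3 had 7.93 CPM at day 220 and 44.9 CPM at day 160, a level 5.66-fold lower (4.05 to 8.14). PIM1 had 3.43 and 20.02 CPM, on 16 and 225 UMIs, and SOCS2 6.65 and 21.8 CPM. In cycling-like cells, 35 and 2316, SOCS2 had 3.56 and 55.9 CPM, on 7 UMIs at day 220, and SOCS3 17.3 and 43.3 CPM. CEBPD had 12.2 and 24.6 CPM there, 2.02-fold lower by plain CPM but at a log2 ratio of -0.96 and so not counted, and 2.89% of all genes were lower and 24.7% higher. In CALB2 precursor-like cells, 41 and 1722, SOCS3 had 10.2 and 35.6 CPM and IL6ST 12.5 and 33.0 CPM, on 9 and 11 UMIs at day 220, beside 6.62% of all genes lower and 27.6% higher. No member was at least 2-fold higher in any of the 4 classes. Outside the cycling-like clusters, where 3.98% of all genes were lower and 23% higher, SOCS2 had 8.20 CPM at day 220 and 67.8 CPM at day 160, SOCS3 29.8 and 79.8 CPM, and PIM1 3.998 and 13.6 CPM. FOS was also lower in all 4 classes, with ratios of 0.65 in astrocyte-like, 0.40 in contractile-like, 0.40 in CALB2 precursor-like and 0.31 in cycling-like cells.

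**Figure D4:**
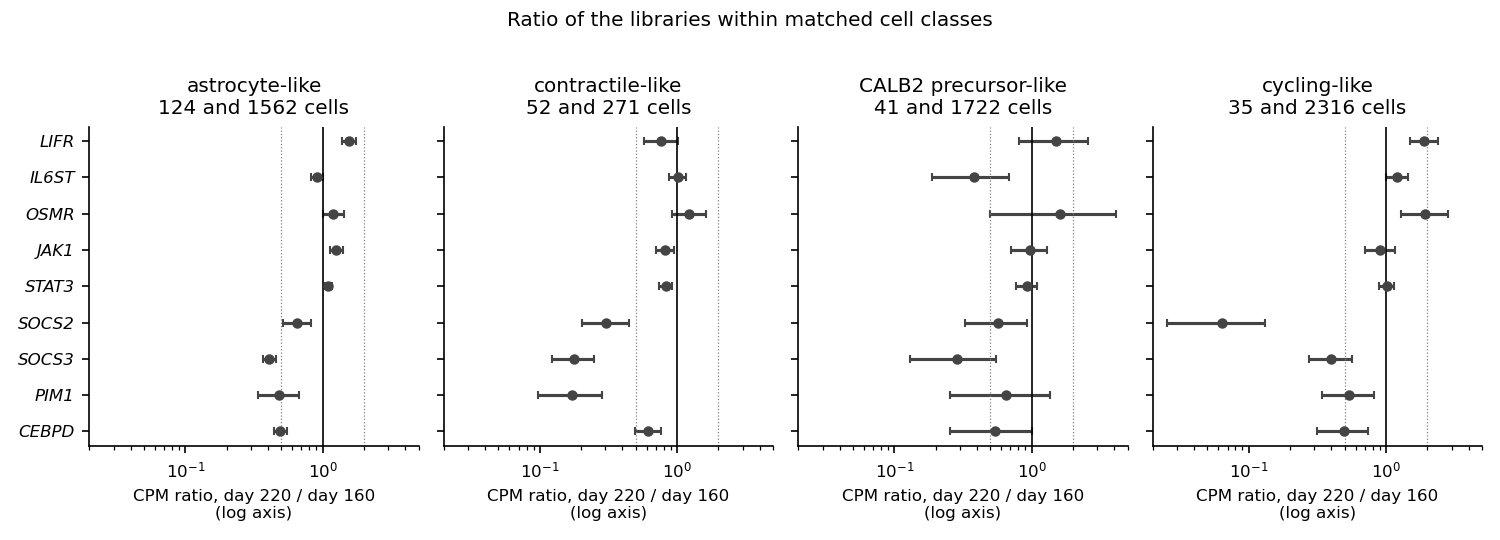
Ratio of CPM at day 220 to CPM at day 160 (log axis) for 9 members within 4 cell classes, with exact conditional 95% intervals; the solid line marks equal levels, the dotted lines 2-fold, and the titles give the cells at day 220 and at day 160. SOCS3 lies left of the 2-fold line in all 4 classes, at 0.41, 0.18, 0.29 and 0.40, while STAT3 lies between 0.83 and 1.10. The ratios are not centred on intron length.

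At an equal depth of 5000 UMIs, which 494 cells at day 220 and 9279 at day 160 reached, a larger share of day 220 cells carried LIFR, OSMR and JAK1 UMIs and a smaller share carried SOCS2, SOCS3 and PIM1 UMIs. LIFR was found in 17.4% of cells (14.2 to 21.0) at day 220 and 10.5% (9.85 to 11.1) at day 160, and OSMR in 8.50% (6.20 to 11.3) and 4.43% (4.02 to 4.87). IL6ST was found in 21.7% (18.1 to 25.6) and 21.6% (20.7 to 22.4), and STAT3 in 56.5% (52.0 to 60.9) and 52.5% (51.4 to 53.5). JAK1 was found in 26.3% (22.5 to 30.4) and 19.3% (18.5 to 20.1), and these intervals did not overlap. SOCS2 was found in 3.64% (2.17 to 5.70) and 23.7% (22.8 to 24.5), SOCS3 in 11.7% (9.04 to 14.9) and 24.3% (23.4 to 25.2), and PIM1 in 2.23% (1.12 to 3.95) and 6.98% (6.47 to 7.52). CEBPD was found in 12.3% (9.58 to 15.6) and 14.0% (13.3 to 14.7), and these intervals overlapped. Before thinning SOCS3 was found in 39.7% and 41.1% of cells, LIFR in 62.6% and 23.7% and SOCS2 in 25.8% and 37.9%. No cell type here is known to lack these genes. The fewest OSMR UMIs, 0, were in the 26-cell cluster led by SSTR2 and EOMES at day 160, a count that allows up to 15.7 CPM, so background from free RNA was not measured.

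Pairs of members with 20 or more predicted cells were found in the same cell about as often as their shares predicted, with some day 160 pairs above. Among 37 pairs with 20 or more cells predicted from the shares within clusters at day 160, doublets left out, the observed number was 0.84 to 1.31 times the predicted one, with a median of 1.05. The intervals of 7 of these 37 pairs lay above 1 and those of 0 below. How often pairs of other genes do so was not counted. At this depth of 5000 UMIs SOCS3 with CEBPD had the largest excess of these pairs, 471 cells observed against 361 predicted within clusters, 1.31 times (1.19 to 1.43). LIFR with IL6ST, the pair of chains that forms the LIF receptor, was found together in 240 cells against 208 predicted, 1.15 times (1.01 to 1.31). At 10000 UMIs per cell LIFR with IL6ST was at 1.03 times (0.94 to 1.13), SOCS3 with CEBPD at 1.19 times (1.10 to 1.27) and OSMR with CEBPD, the highest of 39 pairs, at 1.29 times (1.13 to 1.47). At that depth the intervals of 8 of the 39 pairs lay above 1 and those of 0 below. At day 220 and 5000 UMIs, 8 pairs had 20 or more predicted cells, with a median of 0.99. SOCS3 with CEBPD fell short of 20 predicted cells there, with 14 observed against 7.24 predicted, 1.93 times (1.06 to 3.24). OSMR with SOCS3 did too, with 11 against 4.79, 2.30 times (1.15 to 4.11). At 5000 UMIs the intervals of all other day 220 pairs with a nonzero prediction held the predicted number. At 10000 UMIs the named pairs were at 1.98 times (1.39 to 2.73) and 1.59 times (1.03 to 2.35). Cells differ in how efficiently RNA was captured, and these excesses at low counts are a description only.

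The genes whose levels followed a member most closely over the 10 day 160 clusters of 50 or more cells were named for 3 members, among 6054 genes. For OSMR these were KCNN3 (Pearson's r 0.99), HTRA1 (0.99), EVA1C (0.99), MGST1 (0.99) and PIR (0.99). For SOCS3 these were SDHC (0.97), TSPAN6 (0.97), COA5 (0.96), WDR45B (0.95) and HDHD2 (0.95). For LIFR these were PDPN (0.92), GEMIN8 (0.92), TNIP2 (0.92), MTRF1L (0.92) and BTN3A2 (0.91). These are correlations across clusters that share 1 library, and 1 of the clusters held 225 cells marked as doublets among its 258. Without that cluster, 3 of the OSMR genes, 4 of the SOCS3 genes and 3 of the LIFR genes stayed among the nearest 5.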

How the data were processed

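The authors deposited raw UMI counts per gene and barcode. Per the file headers, the software was Cell Ranger 7.0.1. The submitters' processing notes list Cell Ranger 7, Seurat 4 and the build hg38. Intron counting, the strand setting, the annotation release and any barcode filter are not stated there.

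Counts were summed per library or cluster, with exact Poisson, conditional binomial and Clopper-Pearson intervals at 95% (Python 3.11.15, scipy 1.17.1). The 3-UMI limit for a gene at 0 was 0.115 CPM at day 220 and 0.0233 CPM at day 160. Ratios used a pseudocount of 1 CPM. Genes reaching 10 CPM in at least 1 library were counted at 2-fold. Intron centring subtracted a running median over 501 genes ordered by GENCODE 29 intron length. Marked doublets, 6 cells at day 220 and 583 at day 160 (Scrublet in scanpy 1.11.5), were kept, since the rule for cells does not drop them, and left out as an alternative. Libraries were clustered separately (2000 variable genes, 30 components, 15 neighbours, Leiden resolution 0.5). Classes joined clusters with like leading genes, a choice made after seeing those genes. The ratios, their 2-fold calls and their intervals were tested on simulated counts, and the clustering, intron centring, co-detection and promoter search were not.

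The members and lists were chosen with earlier results of these data known. All members, ligands and co-receptors are named, except 1 ligand that is not reported here, as are other pathway genes at the level and 2-fold apart, and the 5 genes nearest to LIFR, OSMR and SOCS3 with a mean of 20 CPM or more over clusters. With 5 clusters of 50 or more cells, day 220 was not used for the last. Promoter windows are from RefSeq.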

Additional observations from a re-analysis of the deposited data

Results flagged for a closer look

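Some members lay on opposite sides of 0 in different cell classes, and these differences between classes were not tested. The log2 ratio of IL6ST was 0.27 in cycling-like cells and -1.34 in CALB2 precursor-like cells, the second on 11 UMIs at day 220. JAK1 was at 0.33 in astrocyte-like cells and -0.28 in contractile-like cells, and STAT3 at 0.14 and -0.27 in the same classes.

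The barcodes that failed the gene or mitochondrial limits, 152 at day 220 and 3046 at day 160, also held these transcripts. SOCS2 was at 8.17 CPM at day 220 and 68.5 CPM at day 160, SOCS3 at 16.0 and 78.0 CPM, and PIM1 at 6.54 and 12.9 CPM. The limit for a count of 0 there was 0.981 CPM at day 220 and 0.108 CPM at day 160, and mitochondrial genes took 21.5% and 20.1% of UMIs.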

How the results depend on the processing

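No paired analysis was possible because each day had 1 library, and for the same reason no replicate could be left out. SOCS2, SOCS3 and PIM1 made 3 of 9 members at least 2-fold lower. The number was 2 of 9 with centring on intron length and 2 of 5 at a level of 50 CPM. Members at least 2-fold higher numbered 0, but 1 (LIFR, log2 ratio 1.01) with cells thinned to 5000 UMIs. Over all genes, those at least 2-fold higher numbered 2318 of 10167 in the main setting and 1025 of 10139 with intron centring. They numbered 4047 of 36601 with no level filter and 1010 of 4086 at 50 CPM. Genes at least 2-fold lower numbered 524 of 10167 in the main setting and 221 of 4086 at 50 CPM. At Leiden resolution 1.0, 6 of 10 members kept their leading day 160 cluster. Without thinning, 8 members in place of 5 had a higher share of cells at day 220. Over the alternatives for all cells, the log2 ratio of SOCS2 ranged from -3.32 to -2.28, SOCS3 from -1.39 to -0.81 and PIM1 from -1.75 to -1.11, and that of LIFR from -0.13 to 1.01. CEBPD ranged from -0.58 to -0.03, the second with a mitochondrial limit of 10%. Leaving out the CRABP1 cluster or the top cell of a gene was chosen after seeing the data. The median gene lay 0.14 higher at day 220 on the log2 scale. The 52, 41 and 35 cells of 3 day 220 classes limit the precision there.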
